A study of Mus musculus with 6 samples.

Results

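The cytosolic ribosomal protein genes were taken from the deposited table of normalized read counts by their symbols. A row belonged to the set when its whole symbol was *Rpl* or *Rps* followed by a number, with an optional a, x, y or l ending, or was *Rplp0*, *Rplp1*, *Rplp2* or *Rpsa*. This gave 78 of the 59485 rows, 46 for the large ribosomal subunit and 32 for the small one. Of these, 76 have a coding transcript in the GENCODE annotation, while *Rpl32l* and *Rps4l* are listed there as pseudogenes. Rows with several symbols (6) or with a pseudogene symbol ending in -ps (4) were left out, so *Rpl13a*, *Rpl26*, *Rpl30*, *Rpl34*, *Rpl36al* and *Rps27*, each listed together with another gene, are not members.

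Ribosomal proteins and ribosomal RNA make up the ribosome, which translates messenger RNA in every cell. Their messenger RNAs are abundant, and most start with a tract of pyrimidines, the terminal oligopyrimidine (TOP) motif, through which growth signalling by the kinase mTOR sets their translation. Subunits are put together in the nucleolus by a separate set of biogenesis factors around ribosomal RNA made by RNA polymerase I. Schwann cells, the glia of the nerve, make large amounts of membrane and protein after birth, when they wrap axons in myelin.

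Sciatic nerves of mice at postnatal day 4 were compared, with 3 libraries of each genotype and 1 animal per library. The mutant genotype is Ht-PA-Cre; Adar1fl/fl;R26R, in which Cre under the human tissue plasminogen promoter acts in neural crest cells, the source of Schwann cells, on a floxed *Adar* gene (encoding the RNA-editing enzyme ADAR1). The animals labelled wild-type carry floxed *Adar1* and R26R, a YFP tracer, without Cre, according to the methods of the study, and their floxed allele can be on 1 or on both chromosomes. Cells of the nerve from outside the neural crest keep the gene in the mutants.

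The targeted gene had a higher value in the libraries labelled mutant, whose genotype deletes a segment of it in neural crest cells. *Adar* had 1133 to 2066 normalized reads in the libraries labelled wild-type and 9311 to 11768 in those labelled mutant, and the single value per gene does not separate the deleted segment from the rest. Libraries are named below by their label, as control-labelled or mutant-labelled, and every direction follows the labels. The libraries held 50938349 to 78250094 reads on genes. The summed level of 5 Schwann cell markers was 68952 to 71577 in control-labelled and 17975 to 28453 in the mutant-labelled libraries, and those of 6 endoneurial fibroblast, 6 macrophage and 4 erythroid markers were also lower without overlap. Single markers did not all follow their sums. Of the Schwann markers, 1 did not pass, with a log2 fold change of 0.13. Of the 6 fibroblast markers 3 passed as lower, and the macrophage markers split into 2 higher and 2 lower. Sums of 6 skeletal muscle and 5 T and NK cell markers (20.3 to 35.0 against 124 to 351 normalized reads) were higher without overlap. Those of the 5 other cell type lists overlapped. The part of these cell types in the results below was not tested. In whole nerve, fewer cells of a type and less RNA per cell cannot be told apart.

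As a group, the ribosomal protein genes differed little between the genotypes. Of the 77 members tested, 3 rose (*Rpl3l*, *Rpl12* and *Rps12*), 10 fell, and 64 did not pass an adjusted p of 0.05 (limma, Benjamini-Hochberg over all genes). Among all 25802 genes tested, 35.0% passed, 19.0% as higher and 16.0% as lower, against 16.9% of the members. Only *Rpl3l* passed a limit of 2-fold together with an unadjusted p of 0.05, which 24.2% of all genes passed, 13.9% as higher and 10.4% as lower. The remaining member, *Rpl10l*, the testis paralog of *Rpl10*, had no read in any library.

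The median log2 fold change (mutant-labelled over control-labelled) of the tested members was -0.02, beside 0.03 for all genes. It was -0.02 for the 45 large-subunit members, with 2 higher and 4 lower, and -0.04 for the 32 small-subunit members, with 1 higher and 6 lower. The log2 fold change was under 0.5 in size for 72 of 77 members (93.5%), against 42.2% of all genes. The 95% interval of the log2 fold change lay within a 2-fold change in either direction for 73 members, and for 34.0% of all genes. The 4 others were *Rpl3l*, *Rpl39l*, *Rpl21* and *Rpl29*. The 3 values of a genotype did not overlap those of the other in 28 members, 13 of them higher and 15 lower in the mutant-labelled libraries, or 36.4% against 49.2% of all genes (25.9% higher and 23.3% lower).

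**Figure D1:**
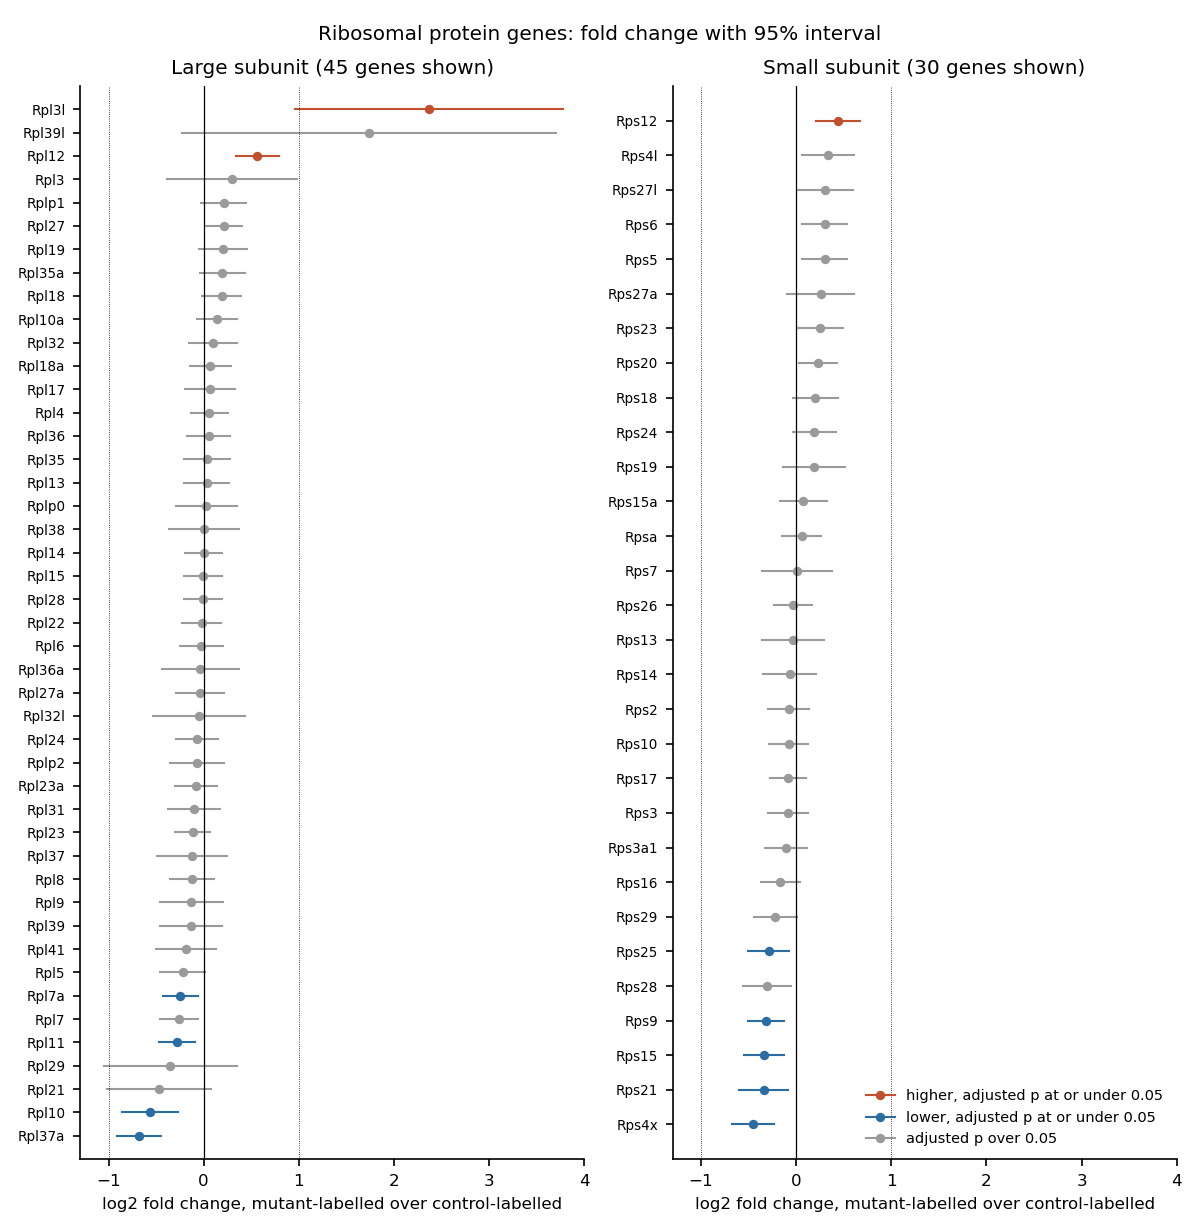
Log2 fold change, mutant-labelled over control-labelled libraries (3 each), of 75 of the 77 tested ribosomal protein genes, with 95% intervals. Points show 45 large-subunit and 30 small-subunit genes, and dotted lines mark 2-fold. Of the 75 genes shown, 3 are colored as higher and 9 as lower at an adjusted p at or under 0.05, and *Rpl3l* and *Rpl39l*, which have few reads, have the widest intervals.

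The counts differed with the genes tested and with the scaling. The median standard error (SE) of the log2 fold change was 0.12 for the 7189 genes at least as abundant as the 5th percentile of the members, 0.10 for the members and 0.31 for all genes. With the test limited to those 7189 genes (a setting chosen after seeing the data), 17 of 73 members passed, against 57.6% of these genes. In the same setting, none of the 73 members passed the 2-fold limit, against 17.7% of these genes. The split of higher and lower members follows the scaling. Against 3 higher and 10 lower with the deposited DESeq2 scaling, it was 18 and 3 with libraries set to the same total and 5 and 10 with TMM factors (36.5% and 34.6% of all genes passed). Read-count tests gave 3 higher and 7 lower members with edgeR (32.5% of all genes passed) and 5 and 11 with DESeq2 (37.5%). Setting the same total moved the median of all genes to 0.20 and that of the members to 0.14, so relative to all genes the members lay 0.06 lower on the log2 scale. Under 3 further settings and with each library left out, fewer members passed, and a smaller share of all genes did too. The count of members was 8 with no filter on low values (22.8% of all genes), 6 with the replicate number as a block (7730 of 25802 genes) and 3 with eBayes without trend (27.1%). It was 12, 6 and 7 without control replicate 1, 2 or 3 (32.0%, 26.1% and 26.6% of all genes) and 11, 10 and 7 without mutant replicate 1, 2 or 3 (29.7%, 30.2% and 28.3%). The 13 members that passed kept their sign under each scaling, but of the 10 that fell only 3 (*Rpl37a*, *Rpl10* and *Rps4x*) still passed as lower at the same total.

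The share of all reads on the members gives the same comparison without size factors. It was 2.15%, 2.28% and 2.31% in control-labelled libraries (mean 2.25% ± 0.08, SD, n = 3) and 2.38%, 2.42% and 2.64% in the mutant-labelled libraries (2.48% ± 0.14, n = 3). All mutant-labelled shares were above the control-labelled ones, with an exact two-sided permutation p of 0.1, the smallest that 3 against 3 libraries can give. The large-subunit share was likewise separate (1.17 to 1.28% and 1.32 to 1.45%), while the small-subunit share overlapped (0.981 to 1.05% and 1.05 to 1.19%, exact permutation p = 0.2). The 10 genes with the highest mean took 18.2% ± 0.73 of the reads in control-labelled and 10.3% ± 1.80 in the mutant-labelled libraries. Among them were *Mbp*, *Pmp22*, *Col1a1* and *Col1a2*, while those at ranks 1, 2, 3, 8 and 9 have no symbol. Of the reads outside these 10 genes, the members held 2.75% ± 0.12 and 2.77% ± 0.18, and the libraries overlapped (exact permutation p = 1).

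**Figure D2:**
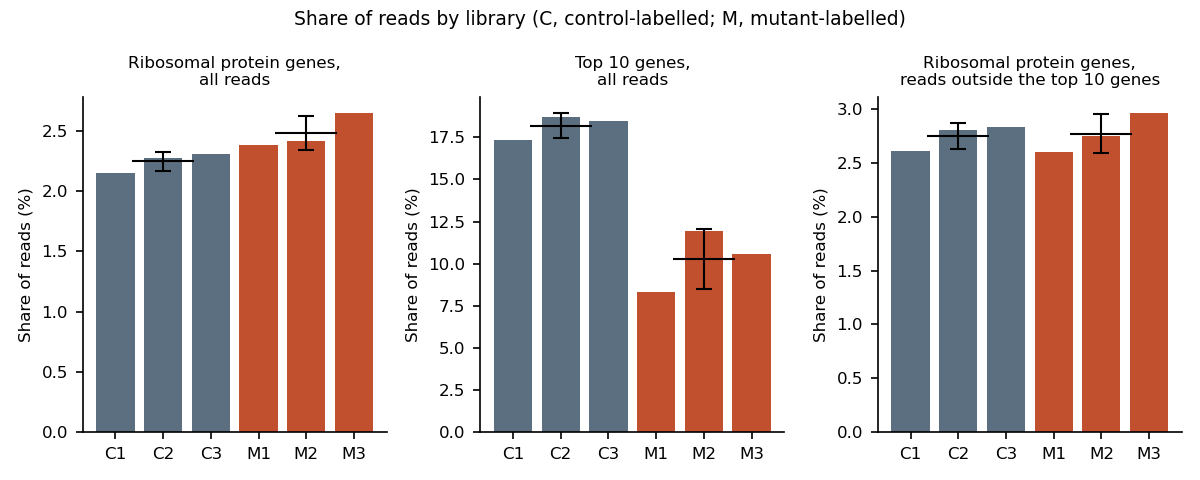
Share of reads in percent in each library, for all ribosomal protein genes, for the 10 genes with the highest mean, and for ribosomal protein genes among the reads outside those 10; bars are libraries, and black marks are the mean and SD of 3 libraries. The members' share of all reads is 2.15 to 2.31% in control-labelled and 2.38 to 2.64% in the mutant-labelled libraries, and outside the 10 genes it overlaps.

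*Rpl12* had the largest rise among the members with more than a few reads. Its protein binds ribosomal RNA at the base of the stalk, the part of the large subunit that recruits translation factors. *Rpl12* (GSMG0020936, mm10 chromosome 2, 32961694 to 32964045, plus strand) had 6783, 7158 and 7677 normalized reads in control-labelled libraries and 9802, 10454 and 11739 in mutant-labelled ones. Every mutant-labelled value lay above every control-labelled value. The log2 fold change was 0.56 (SE 0.10, adjusted p = 0.003, limma). The proteins of the stalk itself did not pass the test. *Rplp0*, *Rplp1* and *Rplp2* had log2 fold changes of 0.03, 0.21 and -0.07, with adjusted p from 0.147 to 0.904 (limma), although *Rplp1* passed at the same total (adjusted p = 0.0131).

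*Rps12*, a protein of the small subunit whose gene hosts 3 small nucleolar RNAs (snoRNAs, which guide modification of ribosomal RNA), rose as well. Its values were 4847, 5477 and 5240 in control-labelled libraries and 6368, 7159 and 7608 in mutant-labelled ones, again without overlap. The log2 fold change was 0.44 (SE 0.10, adjusted p = 0.010, limma). *Rpl12* and *Rps12* kept their call with each library left out in turn.

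The members that fell did so by less than 2-fold. *Rpl37a*, a small protein of the large subunit (GSMG0000408, chromosome 1, 72711260 to 72713811, plus strand), fell most. It had 3855, 4160 and 4580 normalized reads in control-labelled and 2454, 2681 and 2719 in the mutant-labelled libraries. The groups were far apart relative to their spread, and the log2 fold change was -0.68 (SE 0.10, adjusted p = 0.0014, limma). A pseudogene copy, Gm4149, is 99.6% identical over the coding sequence, and its largest row held 4905, 5763 and 5725 normalized reads in control-labelled libraries and 2950, 3273 and 3312 in mutant-labelled ones. With the copy rows added to *Rpl37a* (after seeing the data), the log2 fold change was -0.75.

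*Rpl10*, whose protein is among the last to join the large subunit, lies on the X chromosome (GSMG0041853, 74270816 to 74273135, plus strand). Its values were 3994, 4772 and 4838 in control-labelled and 2686, 3046 and 3491 in the mutant-labelled libraries. The highest mutant-labelled value lay below the lowest control-labelled one, with a log2 fold change of -0.56 (SE 0.13, adjusted p = 0.0099, limma). *Rps4x*, an X-linked gene of the small subunit (GSMG0042730, 102184941 to 102189391, minus strand), had 32022, 37424 and 35311 in control-labelled and 23365, 26500 and 26638 in the mutant-labelled libraries. Its log2 fold change was -0.45 (SE 0.10, adjusted p = 0.0077, limma), without overlap, and -0.29 at the same total (adjusted p = 0.0316). The 2 other X-linked members, *Rpl39* and *Rpl36a*, had log2 fold changes of -0.14 and -0.04 and did not pass the test. *Rpl37a*, *Rpl10* and *Rps4x* kept their call with each library left out in turn.

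Among the other members that fell were *Rps21*, *Rps15*, *Rps9* and *Rps25* of the small subunit and *Rpl11* and *Rpl7a* of the large one, with log2 fold changes from -0.34 to -0.25 and adjusted p from 0.0196 to 0.0462 (limma). Of these, *Rps15*, *Rps25*, *Rps9* and *Rpl7a* lie outside the rule for named genes and are named because they passed. *Rps21* had 7763, 9845 and 8959 normalized reads in control-labelled and 6426, 6929 and 7564 in the mutant-labelled libraries. *Rps9*, a protein of the decoding side of the small subunit, had 38036, 37999 and 37044 in the mutant-labelled libraries, close together, against 43768, 48085 and 49042 in control-labelled ones. In both genes the lowest control-labelled value was above the highest mutant-labelled one. At the same total, all 6 lost their call and their log2 fold changes lay between -0.18 and -0.08 (adjusted p from 0.133 to 0.406, limma). All 6 also lost it with the replicate number as a block (0.0510 to 0.121), as did *Rps21*, *Rps25* and *Rpl7a* with edgeR (0.0539 to 0.0679). None of these calls held with each library left out in turn. Each was lost without control replicate 2 and also without control replicate 3, and, except for *Rps9*, without mutant replicate 1. Without mutant replicate 2 the calls of *Rps21*, *Rps25* and *Rpl7a* were lost, without mutant replicate 3 those of all but *Rps25*, and without control replicate 1 that of *Rpl11*, with an adjusted p of at most 0.168 (limma).

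**Figure D3:**
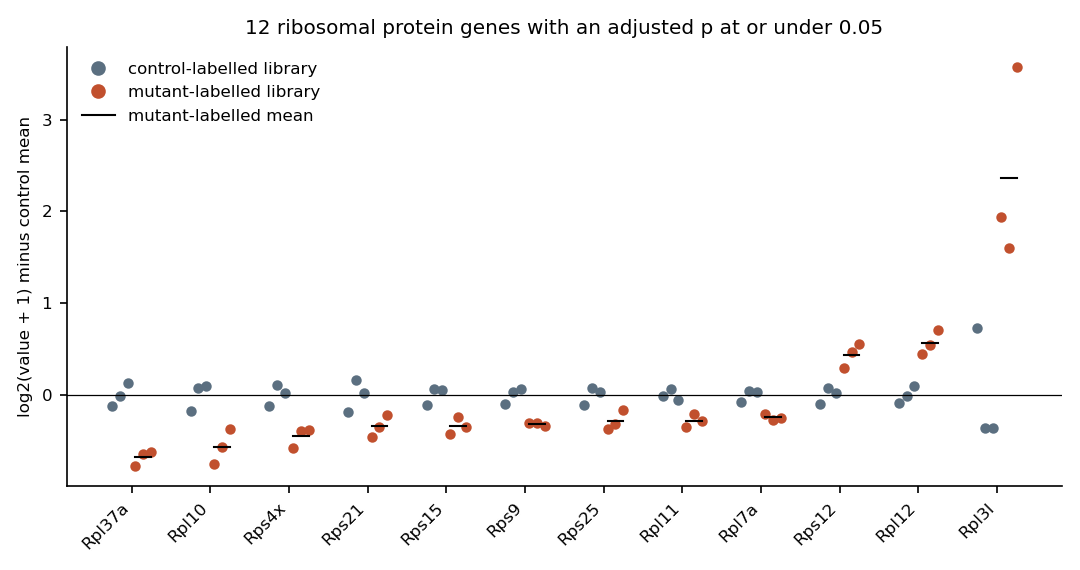
log2(value + 1) of each library minus the mean of the control-labelled libraries, for 12 of the ribosomal protein genes with an adjusted p at or under 0.05, ordered by fold change; points are libraries and short lines mutant-labelled means. No group overlaps for these genes, and *Rpl3l* has the widest spread, with mutant-labelled replicate 3 the highest at 246 normalized reads.

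*Rpl5* and *Rpl11* encode the proteins that, with a small ribosomal RNA, bind MDM2, the ligase that degrades p53, when ribosome assembly fails. *Rpl11* fell from 8966, 9467 and 8723 to 7120, 7820 and 7423, a log2 fold change of -0.28 (SE 0.08, adjusted p = 0.032, limma). At the same total it was -0.12 and did not pass (adjusted p = 0.304, limma), nor did it with the replicate block (0.0813). *Rpl5* had 3955, 4101 and 4421 against 3602, 3240 and 3883, which did not overlap, with a log2 fold change of -0.22 and an adjusted p of 0.132 (limma). Summed with its pseudogene copies, *Rpl5* had a log2 fold change of -0.06.

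Other members known for roles beyond the ribosome or in disease did not pass the test as fitted. *Rps6*, whose protein is phosphorylated by S6 kinase, had 19822, 22328 and 22950 in control-labelled and 24486, 26032 and 29766 in the mutant-labelled libraries. These did not overlap, and the log2 fold change of 0.30 had an adjusted p of 0.0537 (limma). *Rps6* lay close to the threshold, and passed with DESeq2 (adjusted p = 0.0352), with TMM factors (0.0464), at the same total (0.0064) and without mutant replicate 1 (0.0445), but not with edgeR (0.0595) or without any other library (up to 0.149). *Rps19*, mutated in Diamond-Blackfan anemia, *Rps3*, also a DNA repair protein, *Rpl38*, which patterns the skeleton, and *Rps27a*, a fusion with ubiquitin, had log2 fold changes of 0.18, -0.09, 0.01 and 0.26, each with overlapping groups. *Rpsa*, a small-subunit protein also named as a laminin receptor, had a log2 fold change of 0.06 (95% interval -0.15 to 0.26).

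Several members are paralogs known from a single tissue or from stress. *Rpl3l* takes the place of *Rpl3* in the ribosomes of striated muscle. *Rpl3l* (GSMG0016352, chromosome 17, 24727829 to 24736149, plus strand) had 33.3, 15.1 and 15.2 normalized reads in control-labelled and 78.6, 61.8 and 246 in the mutant-labelled libraries. The groups did not overlap, and mutant replicate 3 was the highest. The log2 fold change was 2.37 (SE 0.61, adjusted p = 0.0177, limma), and the call was lost without control replicate 2, control replicate 3 or mutant replicate 3 (adjusted p up to 0.0631). The 6 skeletal muscle markers (*Acta1*, *Ckm*, *Myh3*, *Myh8*, *Tnnt3*, *Actn2*) summed to 28873, 5239 and 21563 in control-labelled and 83768, 34879 and 270760 in the mutant-labelled libraries, 4 of the 6 passed the test as higher, and mutant replicate 3 was again the highest. The part of muscle RNA in the change of *Rpl3l* was not tested.

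*Rpl3* itself had 6486, 15695 and 15445 normalized reads in control-labelled and 14061, 14148 and 14665 in the mutant-labelled libraries. Control replicate 1 stood apart, and the log2 fold change of 0.30 (adjusted p = 0.477, limma) turned to -0.12 without it. *Rpl39l*, a paralog of *Rpl39* known from testis, had 5.55, 5.67 and 43.1 against 26.9, 78.2 and 31.7. These groups overlapped, and its log2 fold change of 1.74 had a 95% interval from -0.22 to 3.71. Without control replicate 3, the highest of its group, the log2 fold change was 2.66 and passed (adjusted p = 0.0320, limma). *Rps27l*, a paralog of *Rps27* that p53 induces, had 3282, 4244 and 3984 against 4368, 4453 and 5348, a log2 fold change of 0.30 (adjusted p = 0.104, limma). *Rps4l*, which GENCODE lists as a transcribed processed pseudogene and which resembles *Rps4x*, had a log2 fold change of 0.34 (adjusted p = 0.0627, limma), against the fall of *Rps4x*. At the same total *Rps27l* and *Rps4l* passed (adjusted p = 0.0173 and 0.0104, limma), and *Rps4l* also without control replicate 3 (0.0214).

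Most members have near-identical copies elsewhere in the genome. In the GENCODE annotation of the same build, 66 of the 78 members had at least 1 pseudogene with 95% identity over 80% of the coding sequence, 514 pairs of a member and such a copy in all. Reads from a stretch that both hold cannot be told apart. *Rpl29*, a small basic protein of the large subunit with 26 such copies, is the clearest case. Over its 480 coding bases, the copies Gm8210 (GRCm38 chromosome 1, 43189156 to 43189638, plus strand) and Gm13841 (chromosome 5, 115801677 to 115802159, minus strand) differ from *Rpl29* (chromosome 9, 106429454 to 106431568, plus strand) by the same 3 substitutions, C72A, C300T and T423C, counted from the first coding base. Coding bases 13 to 72, taken from GENCODE transcripts, show how little separates them, with the differing base in capitals.
Rpl29: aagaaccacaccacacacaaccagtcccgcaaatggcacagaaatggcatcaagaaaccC
Gm8210: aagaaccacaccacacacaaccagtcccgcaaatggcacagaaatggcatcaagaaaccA
Gm13841: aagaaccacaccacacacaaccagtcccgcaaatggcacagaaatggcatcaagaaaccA

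*Rpl29* had 12030, 25089 and 23645 normalized reads in control-labelled and 21812, 12285 and 12856 in the mutant-labelled libraries. It was low in control replicate 1 and mutant replicates 2 and 3, so each genotype held both levels. In these 3 libraries Gm8210 was high, with 9369, 8168 and 9287 normalized reads, against 497 to 584 in the other three. Gm13841 followed, with 7228, 7711 and 7566 against 3349 to 3524. *Rpl29* alone had a log2 fold change of -0.35 (SE 0.31, adjusted p = 0.411, limma). The sum of *Rpl29* and its copies lay between 25776 and 29779 in all 6 libraries, with a log2 fold change of -0.03 (SE 0.09).

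*Rpl21*, the member with the most copies (56), had 14587, 8773 and 14763 against 12011, 8094 and 7377. Its log2 fold change of -0.47 had an SE of 0.24 (adjusted p = 0.165, limma; 0.0372 without control replicate 2), and -0.48 with an SE of 0.17 with its copies.

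**Figure D4:**
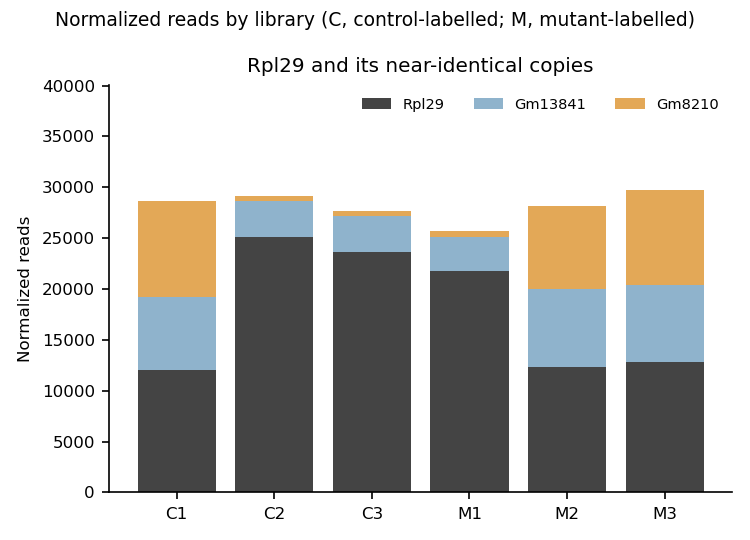
Normalized reads by library for *Rpl29*, stacked with the rows of its 2 most read copies. *Rpl29* is low where Gm8210 is high (control-labelled replicate 1, mutant-labelled replicates 2 and 3), and the stacked total stays between 25745 and 29710 normalized reads.

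With every member summed with its copies, 14 members passed the test (35.0% of all genes passed), among them all 13 that passed alone. The spread within a genotype was otherwise small. The larger of the 2 ratios of highest to lowest value within a genotype had a median of 1.20 over the tested members and exceeded 1.5 in 7 of them, among which were *Rpl39l*, *Rpl3l*, *Rpl3*, *Rpl29*, *Rpl21* and *Rpl38*.

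Promoter sequences from RefSeq (GRCm38.p6, 250 bases before to 50 after an annotated start) were at hand for 58 of the 78 members. A TOP-like tract, here a C followed by at least 4 C or T and beginning within 10 bases of the start, was found in 36 of them (62.1%), against 34.4% of all 27025 genes with a promoter. Beginning exactly at the start, it was found in 22.4% of members, the pseudogene *Rpl32l* among them, and 3.01% of genes. Windows of 30 bases before to 20 after the start follow, for the 2 rising members with more than a few reads and 5 that fell. They set side by side starts with and without such a tract, in capitals. Not shown are *Rpl7a* and *Rps21*, which fell and have a tract, and *Rps25* and *Rpl11*, which fell and have none.
Rpl12: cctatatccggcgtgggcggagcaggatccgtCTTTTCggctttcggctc
Rps12: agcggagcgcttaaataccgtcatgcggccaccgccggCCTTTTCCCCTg
Rps9: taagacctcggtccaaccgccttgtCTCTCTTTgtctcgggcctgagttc
Rpl37a: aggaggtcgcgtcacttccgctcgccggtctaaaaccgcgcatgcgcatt
Rpl10: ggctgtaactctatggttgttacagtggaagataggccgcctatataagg
Rps4x: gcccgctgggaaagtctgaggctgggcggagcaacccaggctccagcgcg
Rps15: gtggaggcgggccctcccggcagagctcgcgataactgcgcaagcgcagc

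The windows lie at chr2:32961682-32961731 (plus), chr10:23787190-23787239 (minus), chr7:3704011-3704060 (plus), chr1:72711230-72711279 (plus), chrX:74270786-74270835 (plus), chrX:102189372-102189421 (minus) and chr10:80292401-80292450 (plus), in that order. Of the 35 tested members with a tract near the start, 3 rose and 3 fell (17.1%, median 0.01). Of the 22 without, none rose and 6 fell (27.3%, median -0.13). Both shares are below the 35.0% of all genes that passed, and their difference was not tested. Among the other motifs, CCGGAAG, the core bound by ETS factors, was found on either strand in 41.4% of members and 9.93% of genes. GGGCGG, the GC box, was in 60.3% and 38.2%, AAGATGG, a YY1 core, in 12.1% and 7.28%, and TATAAA, within 40 bases before the start on the sense strand, in 0 of 58 members and 2.78% of genes. The reverse complement of CCGGAAG can itself hold a tract, and CCGGAAG can share its last bases with AAGATGG.

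Other lists of genes of the translation apparatus are given by their counts and medians, and their difference from the ribosomal proteins was not tested. Of 29 ribosome biogenesis genes, 22 rose and 1 fell, with a median log2 fold change of 0.64. That is 79.3%, against 35.0% of all genes and 53.6% of genes as abundant as the members. *Nmd3*, the export adaptor of the large subunit, had 1746, 1724 and 1644 normalized reads in control-labelled and 4834, 3959 and 5366 in the mutant-labelled libraries. Every mutant-labelled value lay above the highest control-labelled one, and the log2 fold change was 1.46. *Nop10*, a protein of the snoRNA-protein complexes that make pseudouridine, was the one that fell, with a log2 fold change of -0.52.

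RNA polymerase I and its initiation factors (10 genes) had 6 that rose and none that fell, led by *Taf1d* at 1.91 on the log2 scale. That is 60%, against 35.0% of all genes and 53.6% of genes as abundant as the members. The count of 6 changed with single libraries, with 2 rising without control replicate 2 or mutant replicate 3. It was 3 without control replicate 3 or mutant replicate 1. With libraries set to the same median of the members it was 3, and under eBayes without trend 2. Of 7 noncoding host RNAs of snoRNAs, many of which begin with a TOP tract, 6 rose and 1 fell, with a median of 1.34. Thus 100% of them passed, against 35.0% of all genes and 53.6% of genes as abundant as the members. *Snhg12* had 768, 826 and 550 against 3864, 3666 and 3795 (log2 fold change 2.42), and *Snhg3* fell, with a log2 fold change of -0.67. Among the members, 28 host at least 1 of 53 snoRNAs in all, and their median was -0.05 with 2 higher and 3 lower. That is 17.9%, against 16.3% of the members hosting none and 35.0% of all genes.

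Other TOP messenger RNAs had a median of -0.03, and 8 of 18 passed the test (44.4%, against 35.0% of all genes and 53.6% of genes as abundant as the members), 5 as higher and 3 as lower. In place of 8, the count was 3 without control replicate 3 (2 higher and 1 lower), 4 without control replicate 2, mutant replicate 2 or mutant replicate 3, and 3 with the replicate number as a block or with eBayes without trend, settings in which 26.1% to 30.2% of all genes passed. The split also followed the scaling, with 7 higher and 1 lower at the same total and 3 and 4 at the same 75th percentile. *Npm1*, a nucleolar chaperone, rose by 0.76 and *Eif4b*, an initiation factor, changed by -0.56 on the log2 scale. Of 9 further subunits of the initiation factors eIF2 and eIF3, 5 rose (55.6%), led by *Eif2s2* at 1.46, and none fell. Of 12 regulators of TOP translation and S6, 4 rose and 2 fell (50%). These shares stand beside 35.0% of all genes and 53.6% of genes as abundant as the members. Without control replicate 2 or mutant replicate 3 the regulator counts were 2 and 2, as with the replicate number as a block. They were 1 and 3 with libraries set to the same 75th percentile and 1 and 2 at the same median of the members. With eBayes without trend they were 1 and 1. The regulators include a pair of binding proteins that hold back the cap-binding factor: *Eif4ebp1* went from 4207, 4521 and 4609 to 16265, 14806 and 19436 (log2 fold change 1.91), and *Eif4ebp2* from 10455, 11464 and 12044 to 6066, 6184 and 4528 (-1.03).

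The ribosomal proteins of mitochondria, which have their own ribosome, offer the closest comparison by function. Of 74 such genes, 31 rose and 7 fell, with a median of 0.27, from *Mrpl34* at -1.08 to *Mrpl1* at 1.54. The share that passed was 51.4%, against 35.0% of all genes and 53.6% of genes as abundant as the members. The counts were 19 and 4 without control replicate 2, 15 and 2 with eBayes without trend, and 45 and 4 at the same total. Of the 5 cytosolic ribosomal proteins or paralogs outside the symbol rule that the table lists (among them *Fau*, *Rack1*, *Rpl22l1* and *Rpl7l1*), none passed the test, with log2 fold changes from -0.20 to 0.22, but 2 passed as higher at the same total and 1 with a minimum mean of 50. *Rpl36al*, listed together with *Dnaaf2*, was the one of the 6 shared rows that passed, at 0.37 (adjusted p = 0.0252, limma), and *Rpl13a*, listed with *Flt3l*, and *Rps27*, listed with a near copy, had 0.24 and -0.09. With libraries set to the same total, the medians of the biogenesis, mitochondrial and other TOP lists were 0.80, 0.44 and 0.13, beside 0.14 for the members.

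**Figure D5:**
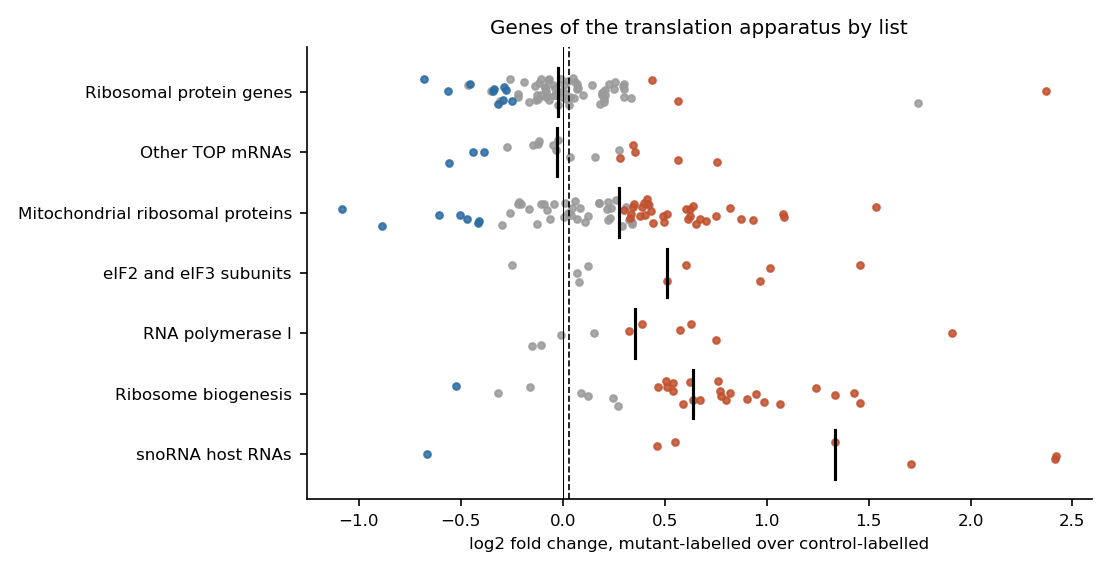
Log2 fold change (mutant-labelled over control-labelled) of the tested genes of each list; points are genes, colored when the adjusted p was at or under 0.05 (orange higher, blue lower), black bars are list medians, and the dashed line is the median of all tested genes, 0.03. The members gather around 0 with a median of -0.02, while 22 of 29 biogenesis genes are higher.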

How the data were processed

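Oriented poly-A cDNA of 3 control-labelled and 3 mutant-labelled sciatic nerves was sequenced. Per the labels and methods, the authors mapped paired reads to mm10 with STAR 2.4.0, counted those on constitutive regions of FAST DB genes, and divided them by DESeq2 size factors. The deposited values are a normalized signal per gene, and 100% of them were whole multiples (within 0.01 reads) of the value of 1 read, 0.727 to 1.27, so reads were recovered for edgeR and DESeq2. log2(value + 1) was fitted with limma (trend) for 25802 genes with a mean of at least 10 in 1 genotype. The added 1 narrows differences between low values. A gene passed at a Benjamini-Hochberg adjusted p at or under 0.05 over all of them, and "rose" and "fell" mean this. Errors are SDs over animals or standard errors of the limma fit.

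The members and lists were chosen with earlier results of these data known. Results for a few genes are left out here, also from the figures. Genes were named for being stalk proteins, tissue paralogs with parents, the 6 largest rises and 6 largest falls, known extra-ribosomal roles, or the largest rise and fall that passed in each list. On data simulated for this comparison over 25802 genes, limma called 85.7% of genes changed by 2 on the log2 scale. It called 24.7% of those changed by 0.5 and 0.0285% of unchanged ones. Only 98 and 97 tested genes were changed at these sizes, and the spread between libraries was set rather than estimated. These shares are over genes of all levels and do not say how often such a change in a member would pass. Copies were found with blastn 2.17.0 among 13607 GENCODE pseudogene transcripts. R 4.3.3, limma 3.58.1, edgeR 4.0.16, DESeq2 1.42.0, Python 3.11.15, numpy 2.4.6, pandas 2.3.3, scipy 1.17.1 and matplotlib 3.10.9 were used. Alternatives were 2 pseudocounts, 2 filters, 4 scalings, eBayes without trend, edgeR, DESeq2, a replicate block, each library left out, and 2 settings chosen after seeing the data.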

Additional observations from a re-analysis of the deposited data

How the results depend on the processing

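The count of 13 members that passed became 8 with no filter on low values, 21 with libraries set to the same total, 3 with eBayes without trend and 6 with the replicate number as a block, and it ranged from 6 to 12 with each library left out in turn (lowest without control replicate 2, and 7 without control replicate 3 or mutant replicate 3). The share of all genes that passed went from 35.0% to 22.8%, 36.5% and 27.1% in the first 3 of these settings, and was 26.1% to 32.0% with a library left out. The count of members was 10 with edgeR (32.5% of all genes) and 16 with DESeq2 (37.5%). Under the 2-fold rule, 1 member passed, 2 without control replicate 3 and 0 among genes as abundant as the members, where *Rpl3l* is not tested. The medians of all, large-subunit and small-subunit members moved to 0.14, 0.14 and 0.13 at the same total. With each library left out they ranged from -0.11 to 0.03, -0.11 to 0.036 and -0.11 to 0.01. The difference in read share, 0.24 percentage points, was 0.0208 outside the 10 genes with the highest mean, 0.23 over rows with a symbol, where the groups overlapped (exact permutation p = 0.3), and 0.15 to 0.29 with each library left out. The cause of these shifts was not tested. Libraries with the same replicate number did not deviate together (r = -0.06, -0.06 and 0.01 over tested genes), so the numbers were not taken as pairs. Depth limits *Rpl3l* and *Rpl39l*, with 5 to 249 reads in a library, and intervals cover the spread of 3 animals.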
